A study of Mus musculus with 5 samples.

Results

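The subunits of the oxidative phosphorylation machinery were followed in differentiated primary mouse myoblasts of WT and Elmo2EID/EID animals. The members were the protein-coding genes of the deposited table whose symbols name a subunit of complex I (Nduf), complex II (Sdh), complex III (Uqcr), complex IV (Cox4 to Cox8) or complex V (Atp5), and the protein-coding genes of mitochondrial DNA (mt-). The rule left out Ndufs5, and its symbols did not take in the subunits Cyc1 and Ndufab1. It gave 97 of the 54232 genes in the table, 84 encoded in the nucleus and 13 in mitochondrial DNA. They carried 96 distinct symbols, because Atp5o is listed under 2 identifiers. By complex, 36 nuclear and 7 mitochondrial genes belonged to complex I, 4 nuclear genes to complex II, 8 and 1 to complex III, 18 and 3 to complex IV, and 18 and 2 to complex V.

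Primary myoblasts are muscle precursor cells. They were isolated from leg muscle with magnetic beads and kept for 72 h in low-serum medium, in which they stop dividing and fuse into myotubes. WT cells (n = 3) and cells homozygous for the Elmo2EID knock-in (n = 2) were grown in the same way. The knock-in changes a residue of the inhibitory domain of ELMO2, an adaptor of DOCK-family activators of RAC1, and favours its open conformation. The allele is carried by every cell of the animal, so all cells of a culture had it, and the mice were on a mixed C57BL6 and 129SV background. The animals of both genotypes were 6 to 8 weeks old when the cells were taken. Cells for primary-cell experiments of the study typically came from 3 separate mice, but no source used here ties each of these samples to its own mouse, and the p-values measure the spread between these 5 samples whatever its source.

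Complexes I to IV form the electron transport chain of the inner mitochondrial membrane. Complex I takes electrons from NADH and complex II takes them from succinate, complex III passes them to cytochrome c, and complex IV hands them to oxygen. Complexes I, III and IV pump protons while they do so, and complex V, the ATP synthase, uses the returning protons to make ATP. Most subunits are encoded in the nucleus and imported, a small core is encoded in mitochondrial DNA, and complex II is wholly nuclear. Skeletal muscle is known for its own isoforms of several complex IV subunits, which replace the general isoforms as fibres mature.

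The values were poly-A RNA read counts divided by a size factor of the sample, called normalized counts here. Recovered totals ran from 35021856 to 49381544 reads a sample, and 3 reads corresponded to 2.65 to 3.73 normalized counts. Elmo2 itself had 1642, 1539 and 1660 normalized counts in WT, against 1441 and 1327 in Elmo2EID/EID samples (log2 fold change -0.22, adjusted p = 0.226 from limma). A codon change cannot be seen in gene counts, and the labels are not checked by this level. The labels and the table name no batch. Fold changes set Elmo2EID/EID against WT on the scale log2(normalized count + 1) and were tested with limma and Benjamini-Hochberg adjustment over 18156 genes. In a culture of mixed cells, fewer cells of a type and less RNA per cell cannot be told apart.

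No member passed the test in either direction, and for most nuclear members the size of any difference was narrowly bounded. The test took genes that reached 5 normalized counts in any sample, which 92 of the 97 members did, 80 nuclear and 12 mitochondrial. Among them 0 had an adjusted p under 0.05, where 2.23% of all tested genes did, 1.09% higher and 1.14% lower. edgeR's quasi-likelihood test on the recovered reads also called 0 members, against 2.25% of all genes. The DESeq2 Wald test on the same reads called 2 members, Cox6a2 and Cox6c, both lower, against 5.55% of the genes to which it gave an adjusted p. Without adjustment, 5 of the 92 members (5.43%) had p under 0.05, where 15.2% of all tested genes did. The WT and Elmo2EID/EID values did not overlap in 16 of the 92 members (17.4%), 7 higher and 9 lower, where 32.6% of all tested genes did not overlap. The 7 were Ndufa13, Ndufb5, Ndufs1, Sdhb, Atp5a1, Atp5b and Atp5l, and the 9 were mt-Nd3, Ndufb2, Ndufc2, Sdha, Cox6a2, Cox6b2, Cox6c, Cox7c and Atp5e.

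The median log2 fold change was 0.00 over the 80 nuclear members (39 above 0 and 41 below), -0.11 over the 12 mitochondrial members and 0.01 over all tested genes. The nuclear median was -0.07 without Elmo2EID/EID replicate 1 and 0.06 without replicate 2. The median size of the log2 fold change, whatever its sign, was 0.05 for nuclear members. It was 0.16 for all tested genes and 0.08 for the 6194 genes that averaged 1000 normalized counts or more. For 76 of the 80 nuclear members the 95% interval of the log2 fold change lay within 0.5 of 0 on either side, a ratio between 0.707 and 1.41, and the other 4 were Cox4i2, Cox6a2, Cox6b2 and Cox7a1. The same held for 6 of the 12 mitochondrial members, and the 5 members not tested were mt-Nd4l, Ndufa4l2, Cox7b2, Cox8c and the second Atp5o identifier.

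**Figure D1:**
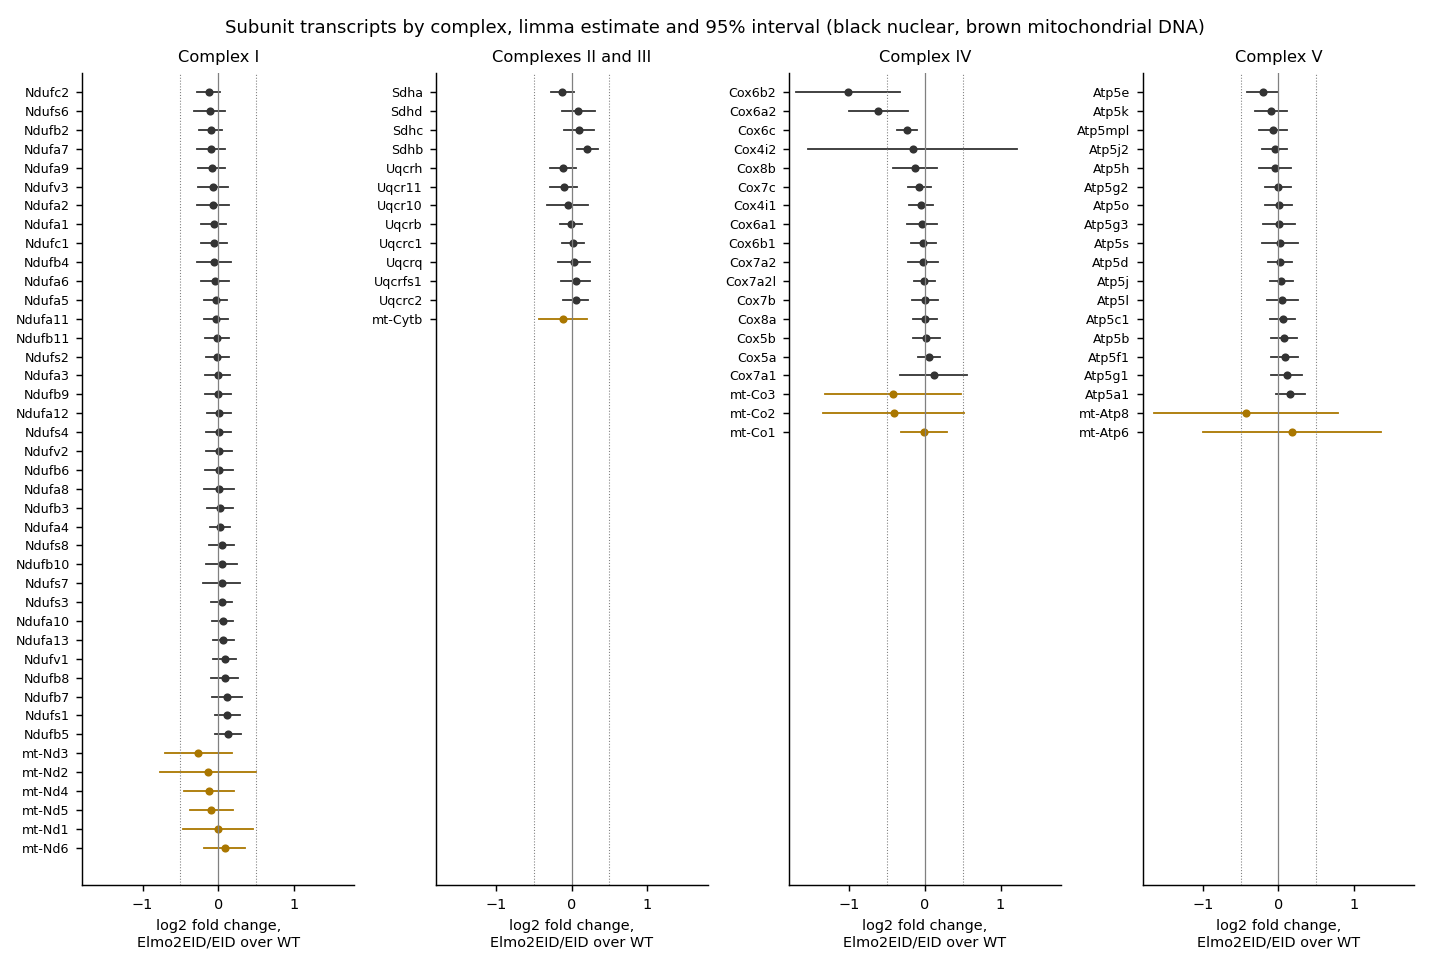
Log2 fold change of each of the 92 tested members, Elmo2EID/EID (n = 2) over WT (n = 3), by complex. Points are limma estimates, bars are 95% intervals, the solid line is 0 and dotted lines are at -0.5 and 0.5; black marks nuclear and brown marks mitochondrial genes. Most nuclear intervals lie between the dotted lines, Cox6a2 and Cox6b2 lie to the left of 0, and the widest intervals belong to genes with few counts.

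Complex I, the NADH dehydrogenase, has the largest number of subunits, and the estimates for its nuclear transcripts were small and of either sign. The log2 fold changes of its 35 tested nuclear members ran from -0.13 to 0.13, with 18 above 0 and 17 below, and all 35 intervals lay within 0.5 of 0. The highest was Ndufb5, an accessory subunit of the membrane arm, with 4552, 4811 and 5007 normalized counts in WT, against 5473 and 5033 in Elmo2EID/EID samples. The Elmo2EID/EID values stood just above the WT values, the nearer pair 5007 and 5033 (log2 fold change 0.13, SE 0.07, adjusted p = 0.441). The lowest was Ndufc2, also an accessory subunit of that arm, with 2729, 2735 and 2839 in WT, against 2610 and 2467 in Elmo2EID/EID samples. Here both Elmo2EID/EID values stood below the WT values (log2 fold change -0.13, SE 0.06, adjusted p = 0.411). Per kilobase of exon the highest level among its nuclear members was that of Ndufa13, a membrane arm subunit, at 7527 normalized counts per kilobase. The length took all annotated exons of a gene together, and ranks per length depend on that choice. Ndufa13, Ndufb2 and Ndufs1 also had groups that did not overlap, the last 2 being named after their values were seen. Ndufs1, the large iron-sulphur subunit, had 13476, 13507 and 14118 normalized counts in WT, against 15757 and 14125 in Elmo2EID/EID samples, so its groups were parted by less than the range within either of them. Ndufa4, listed with complex I by name and known to sit in complex IV, ranged from 7270 to 7522 over the 5 samples. Its paralog Ndufa4l2, an isoform known from low oxygen, was at or under 3 reads in every sample.

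Complex II, succinate dehydrogenase, also works in the citrate cycle, and its catalytic subunits had estimates on opposite sides of 0. Sdhb, the iron-sulphur subunit, had 7032, 7141 and 6778 normalized counts in WT, against 7883 and 8251 in Elmo2EID/EID samples. Both Elmo2EID/EID values were above every WT value, 8067 ± 261 (SD, n = 2) against 6984 ± 186 (SD, n = 3), yet the difference did not pass adjustment (log2 fold change 0.21, SE 0.06, adjusted p = 0.164). Sdha, the flavoprotein that forms the catalytic dimer with Sdhb, had 22352, 23113 and 24203 in WT, against 21182 and 21480 in Elmo2EID/EID samples. Its values lay on the other side, below the WT values (log2 fold change -0.12, SE 0.06, adjusted p = 0.433). The membrane anchors Sdhc and Sdhd had log2 fold changes of 0.10 and 0.09 with overlapping groups. The 95% intervals were 0.07 to 0.35 for Sdhb and -0.27 to 0.03 for Sdha.

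Complex III carries electrons from ubiquinol to cytochrome c, and its 8 nuclear members gave log2 fold changes between -0.11 and 0.06. The groups overlapped in each of them. The extremes were Uqcrc2, a core protein, with a log2 fold change of 0.06 (95% interval -0.11 to 0.22), and Uqcrh, the hinge protein that docks cytochrome c, with -0.11 (95% interval -0.28 to 0.06). Uqcrfs1, the Rieske iron-sulphur protein, had the highest level per length of these nuclear members, at 8067 normalized counts per kilobase of annotated exon. This rank depends on the length used. The annotated exons covered 1363 bases for Uqcrfs1 and 1237 for Uqcrh, while the longest coding transcript of Uqcrh has 547.

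Complex IV, cytochrome c oxidase, takes electrons from cytochrome c to oxygen, and its nuclear members had the widest range of estimates, -1.02 to 0.12. An unadjusted p under 0.05 was found for 3 of the 16 tested (18.8%), near the 15.2% of all tested genes. Of the 16, 13 had a log2 fold change below 0, with a median of -0.03.

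Cox6a2 encodes the heart and skeletal muscle isoform of subunit 6a, and its gene lies at chr7:128205435-128206387 on the minus strand (GRCm38). It had 6245, 5186 and 7851 normalized counts in WT, against 4385 and 3875 in Elmo2EID/EID samples. Both Elmo2EID/EID values were below the lowest WT value, and the WT values were themselves widely spread. The means were 6427 ± 1342 (SD, n = 3) and 4130 ± 360 (SD, n = 2), a ratio of 0.643. The log2 fold change was -0.62 (SE 0.16, 95% interval -1.01 to -0.23). The adjusted p was 0.133 from limma and 0.120 from edgeR's quasi-likelihood test, and 0.00658 from the DESeq2 Wald test, so the call depended on the tool. Its general counterpart Cox6a1 ranged from 2253 to 2625 over the 5 samples, with overlapping groups. Per length of exon, Cox6a2 made up 73.4%, 68.8% and 75.5% of the sum of both isoforms in WT, against 64.2% and 64.0% in Elmo2EID/EID samples. The muscle isoform was the larger part in all 5 samples, and the 2 lowest shares were those of Elmo2EID/EID. The share itself was not tested.

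For the other muscle isoforms of the complex the groups overlapped. Cox7a1, the muscle isoform of subunit 7a, had 801, 738 and 1080 normalized counts in WT, against 1071 and 814 in Elmo2EID/EID samples (log2 fold change 0.12, 95% interval -0.33 to 0.56), the highest estimate of complex IV. It was 19.5% to 25.7% of the sum with Cox7a2 per length in WT, against 25.2% and 22.8% in Elmo2EID/EID samples. Cox8b, the muscle isoform of subunit 8, was 48.9% to 55.1% of the sum with Cox8a in WT, against 51.2% and 48.9% in Elmo2EID/EID samples. Cox8b alone ranged from 1942 to 2563 normalized counts.

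**Figure D2:**
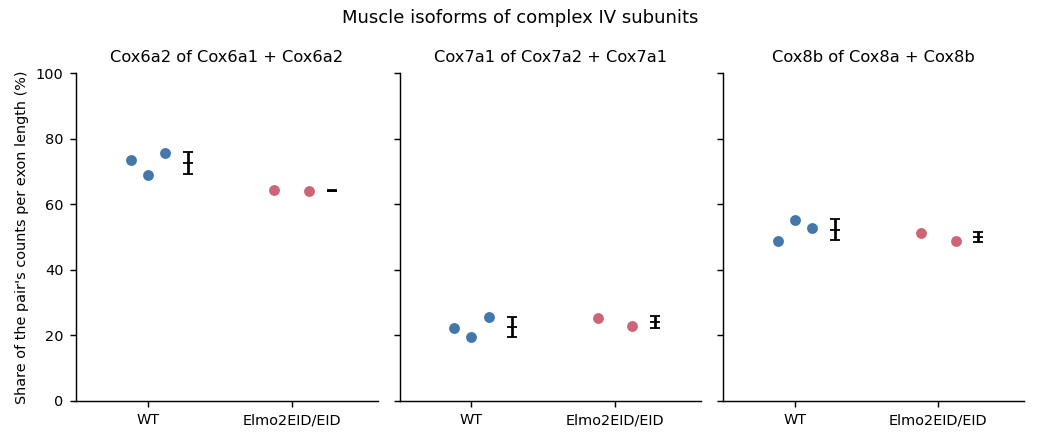
Share of the muscle isoform in the sum of the muscle and the general isoform, each as normalized counts per exon length, in percent, for subunits 6a, 7a and 8 of complex IV. Coloured points are samples, and the black mark and bar are the mean and SD of WT (n = 3) and Elmo2EID/EID (n = 2). The Cox6a2 share is 68.8% or more in WT and at most 64.2% in Elmo2EID/EID samples, while the Cox7a1 and Cox8b shares overlap.

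The other isoform pairs of complex IV were dominated by the general form. Cox4i1, the usual subunit 4, ranged from 14984 to 16533 normalized counts, while Cox4i2, an isoform known from lung and low oxygen, had 2.24 to 8.84 and a log2 fold change of -0.16 with a 95% interval from -1.55 to 1.22. Cox6b1 had the highest level per length of the nuclear members of the complex, 17221 normalized counts per kilobase of all annotated exons, a rank that depends on this length. Cox6b2, known as a testis isoform, had 30.9, 44.9 and 46.0 normalized counts in WT, against 20.6 and 17.9 in Elmo2EID/EID samples. Both Elmo2EID/EID values lay below the lowest WT value (log2 fold change -1.02, SE 0.29, adjusted p = 0.159), at 0.23% or less of the sum with Cox6b1 per length. Cox7b and Cox7a2l, the latter named as a subunit 7a protein and known as a supercomplex factor, ranged from 8095 to 8966 and from 4514 to 4786. Cox7b2 was at 0 in 4 samples with 1 read in the other, and Cox8c was at 0 in all 5, which allows up to 3.73 normalized counts.

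Cox6c, a small membrane subunit without isoforms in this set, had the lowest adjusted p of all members with limma and edgeR. With DESeq2 that of Cox6a2 was lower, and Cox6c is described here after its values were seen. It had 6779, 6846 and 6795 normalized counts in WT, against 5918 and 5625 in Elmo2EID/EID samples. The WT values lay within 1% of their mean, 6807 ± 34.7 (SD, n = 3), and both Elmo2EID/EID values were below them, 5772 ± 207 (SD, n = 2), a ratio of 0.848. The log2 fold change was -0.24 (SE 0.06, 95% interval -0.37 to -0.10), with an adjusted p of 0.0995 from limma, 0.0989 from edgeR and 0.0149 from DESeq2.

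A processed pseudogene of Cox6c, Cox6c2, passed the test and rose. It lies at chr12:56373593-56373823 (GRCm38) and matches 224 of its 231 bases to the Cox6c transcript of chr15:35925886-35938246. The sequences are shown because a 50-base end within the copied part differs only where it covers one of the differing bases, set here in capitals. The other end of its pair can lie outside the copied part. Both are on the minus strand of their chromosome and are given 5′ to 3′, from base 136 to base 235 of the Cox6c transcript in GENCODE M21, with 6 of the 7 differences in this stretch.
Cox6c: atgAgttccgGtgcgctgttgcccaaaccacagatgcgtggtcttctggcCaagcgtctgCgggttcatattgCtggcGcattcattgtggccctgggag
Cox6c2: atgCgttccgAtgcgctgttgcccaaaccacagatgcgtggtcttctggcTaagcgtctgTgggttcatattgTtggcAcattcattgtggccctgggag

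Cox6c2 had 6.18, 1.12 and 2.49 normalized counts in WT, against 99.3 and 82.5 in Elmo2EID/EID samples. WT was near the level of 3 reads and both Elmo2EID/EID samples were well above it, with a log2 fold change of 4.60 (SE 0.55, adjusted p = 0.0108 from limma). WT being near that floor, the estimate depends on the pseudocount and is no bound. The adjusted p was 0.134 without the first and 0.172 without the second Elmo2EID/EID sample, 0.0696 without limma's trend and 0.0603 with no filter on low values. Over 155 annotated pseudogene copies of 59 members, 31 copies were tested and Cox6c2 was the only copy called, where 2.23% of all tested genes were called. The 3 copies of Cox6c together gained 93.4 normalized counts in the mean, 9.03% of the fall of 1035 in the mean of Cox6c itself, and adding copies to their parents left the log2 fold change of Cox6c at -0.22. Whether the parent and the copy are linked was not tested.

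Complex V, the ATP synthase, had the most abundant nuclear transcripts of the set. Atp5b, the catalytic beta subunit, had the highest level per length of all nuclear members at 25176 normalized counts per kilobase, and ranged from 104076 to 111310 normalized counts. The highest estimate was Atp5a1, the alpha subunit, with 62239, 63774 and 68371 normalized counts in WT, against 75382 and 69215 in Elmo2EID/EID samples. Both Elmo2EID/EID values were above those of WT, by little in the nearer pair (log2 fold change 0.16, SE 0.08, adjusted p = 0.421). Atp5b and Atp5l, a small membrane subunit, also had groups that did not overlap, and for Atp5l the nearest values were 610 and 613. The lowest was Atp5e, the small epsilon subunit of the central stalk, with 3029, 3444 and 3036 in WT, against 2890 and 2597 in Elmo2EID/EID samples (log2 fold change -0.21, SE 0.09, adjusted p = 0.323). All 17 intervals of tested nuclear members of the complex lay within 0.5 of 0. Atp5g1, Atp5g2 and Atp5g3 encode the same mature c subunit of the rotor. Per kilobase of exon Atp5g3 led with 9181 normalized counts, against 980 for Atp5g1 and 622 for Atp5g2, and the share of each of these 2 in its sum with Atp5g3 overlapped between the groups.

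**Figure D3:**
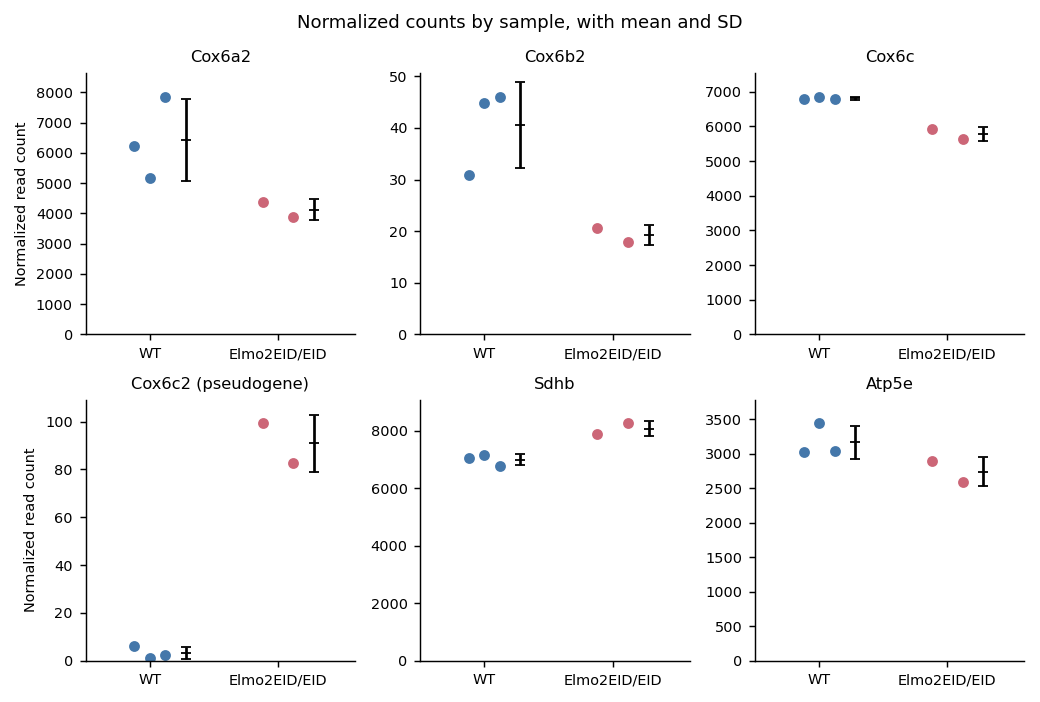
Normalized counts by sample for the 5 members with an unadjusted p under 0.05 and for the pseudogene Cox6c2, in WT (n = 3) and Elmo2EID/EID (n = 2) samples, with each axis starting at 0. Coloured points are samples, and the black mark and bar are the mean and SD. Cox6a2, Cox6b2, Cox6c and Atp5e lie lower in both Elmo2EID/EID samples, Sdhb lies higher, and Cox6c2 rises from near 0 to 82.5 and 99.3.

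The genes of mitochondrial DNA gave the largest counts of all members, and 0 of the 12 tested were called. Of all reads, they took 3.21% to 4.12% in WT, against 3.83% and 3.29% in Elmo2EID/EID samples, so the groups overlapped. The nuclear members took a mean of 1.53% ± 0.0406 (SD, n = 3) of the reads of WT samples, and 1.61% and 1.48% in Elmo2EID/EID. The mitochondrial reads per nuclear member read came to 2.14, 2.66 and 2.62 for WT and to 2.38 and 2.23 for Elmo2EID/EID. These shares come from poly-A enriched RNA, and mitochondrial messages carry short tails, so the share measures what was captured. They also rest on uniquely mapped reads, so reads from stretches that occur in another gene as well, described below, are left out.

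The counts of the mitochondrial genes fell into separate ranges. mt-Co1, the catalytic core of complex IV, had 407215, 506868 and 486974 normalized counts in WT, against 465858 and 453797 in Elmo2EID/EID samples (log2 fold change -0.02, 95% interval -0.32 to 0.29). mt-Cytb, the cytochrome b of complex III, ranged from 255521 to 330671. The complex I genes mt-Nd1, mt-Nd2, mt-Nd4 and mt-Nd5 lay between 113943 and 316176. The spread within WT was wide, and for mt-Nd2 the WT values were 154313, 208805 and 272780 and the Elmo2EID/EID values 232440 and 152349, a log2 fold change of -0.13 with a 95% interval from -0.77 to 0.50. mt-Nd6, the member on the opposite strand of the genome, had 3287, 4035 and 3150 in WT, against 3842 and 3535 in Elmo2EID/EID samples (log2 fold change 0.09, 95% interval -0.18 to 0.36).

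The other 6 mitochondrial genes had at most 132 normalized counts. mt-Nd3 had 98.1, 132 and 109 in WT, against 89.4 and 97.7 in Elmo2EID/EID samples, the lower values being those of Elmo2EID/EID by a narrow margin (log2 fold change -0.26, 95% interval -0.71 to 0.18). mt-Co2 and mt-Co3, subunits of the same complex as mt-Co1, had 8.07 to 18.6 and 7.17 to 13.7. mt-Atp6 and mt-Atp8, the membrane subunits of the ATP synthase, had 3.37 to 8.70 and 3.73 to 9.72, and mt-Nd4l had 0 to 4.49.

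Sequence identity with nuclear copies divided the genes in nearly the same way. The authors counted uniquely mapped reads from 50-base ends. In mt-Co2, mt-Atp6, mt-Co3, mt-Nd3 and mt-Nd4l, 98.0% to 100% of the 50-base stretches also occurred in another annotated gene, and these 5 genes had 0 to 132 normalized counts. In the 7 genes with 3150 to 506868 normalized counts, at most 62.2% of the stretches did, and the share was 0% for mt-Nd1, mt-Nd6 and mt-Cytb. The exception was mt-Atp8, with 0% shared in annotated transcripts. Of its 204 bases, 43 overlap mt-Atp6, and 233 bases without an annotated gene lie between the nuclear copies of mt-Atp6 and mt-Co2. Those copies belong to a block of 7 copies at chr1:24611535-24616197 (GRCm38), none of which exceeded 12.4 normalized counts. A read that matches more than one place is not uniquely mapped and is not counted, so the counts of the 5 genes leave such reads out. Their levels were not set against those of other genes.

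The start of mt-Co2 and of its chromosome 1 copy is shown as an example of a stretch with no difference. The gene lies at chrM:7013-7696 on the plus strand and Gm28661 at chr1:24614885-24615565 on the minus strand, and all 681 shared bases are identical. Bases 1 to 100 of both are given 5′ to 3′, where a capital would mark a difference.
mt-Co2: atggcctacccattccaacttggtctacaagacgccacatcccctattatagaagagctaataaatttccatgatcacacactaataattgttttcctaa
Gm28661: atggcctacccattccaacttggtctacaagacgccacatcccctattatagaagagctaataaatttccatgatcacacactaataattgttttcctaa

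For mt-Co1, the copy Gm13340 on chromosome 2 differed at 37 of 1545 bases (97.6% identical). mt-Co1 lies at chrM:5328-6872 on the plus strand and Gm13340 at chr2:22588103-22589647 on the minus strand. Bases 1 to 100 are given 5′ to 3′ with the 3 differences in capitals.
mt-Co1: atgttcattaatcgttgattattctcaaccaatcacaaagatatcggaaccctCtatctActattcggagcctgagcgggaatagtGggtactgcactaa
Gm13340: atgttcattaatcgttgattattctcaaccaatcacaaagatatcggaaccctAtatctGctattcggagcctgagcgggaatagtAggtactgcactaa

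The copy had 135, 181 and 163 normalized counts in WT, against 143 and 126 in Elmo2EID/EID samples, far below mt-Co1 itself. Among nuclear members shared stretches were less frequent: 45 of 84 had any and 26 of 84 had more than 10%. The highest shares of expressed members were 84.8% for Atp5l and 50.3% for the expressed Atp5o identifier. Some shared stretches belong to an overlapping gene rather than to a copy, such as Tssk6 for Ndufa13. The search took both strands while the counting was stranded, so these numbers can include stretches that cost no reads. Whether counts of such members miss reads was not tested.

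**Figure D4:**
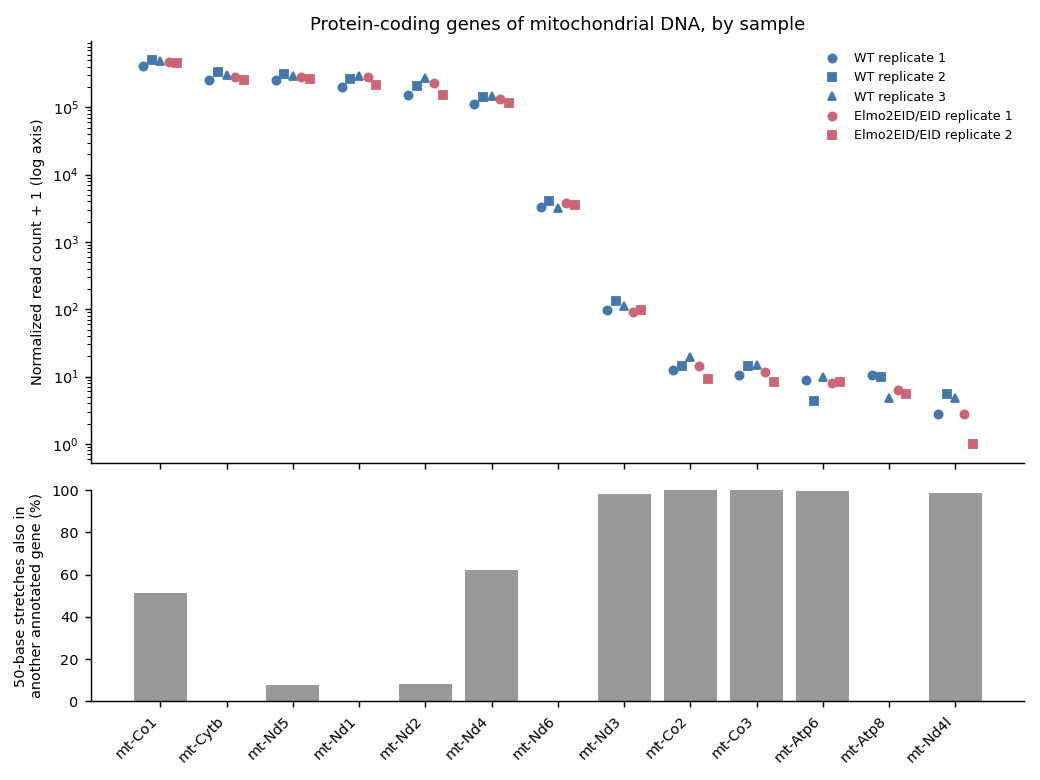
Normalized read counts of the 13 protein-coding genes of mitochondrial DNA, plus 1, on a log axis (upper panel), and the percentage of the 50-base stretches of each gene that also occur in another annotated gene (lower panel). Blue points are WT samples and red points Elmo2EID/EID samples. The 5 genes with 98.0% or more shared stretches and mt-Atp8 lie at 132 normalized counts or fewer, and the other 7 lie at 3150 or more.

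Within the Elmo2EID/EID group, the replicates differed in the same direction for nearly all members. Replicate 1 exceeded replicate 2 in 74 of the 80 nuclear members (92.5%) and in 7 of the 7 mitochondrial members that averaged 1000 normalized counts or more. Among the 6194 tested genes at that level it did so in 58.9%. By complex the count was 34 of 35 in complex I, 8 of 8 in complex III, 15 of 16 in complex IV, 15 of 17 in complex V and 2 of 4 in complex II, where Sdha and Sdhb went the other way. Replicate 2 had the lowest value of the 5 samples in 43 nuclear members and replicate 1 the highest in 46. In median the nuclear members of replicates 1 and 2 lay 0.06 above and 0.07 below their own mean on the log2 scale, with WT samples at -0.04, 0.01 and 0.03. The gap between the Elmo2EID/EID replicates in this median was wider than the range of the WT samples.

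**Figure D5:**
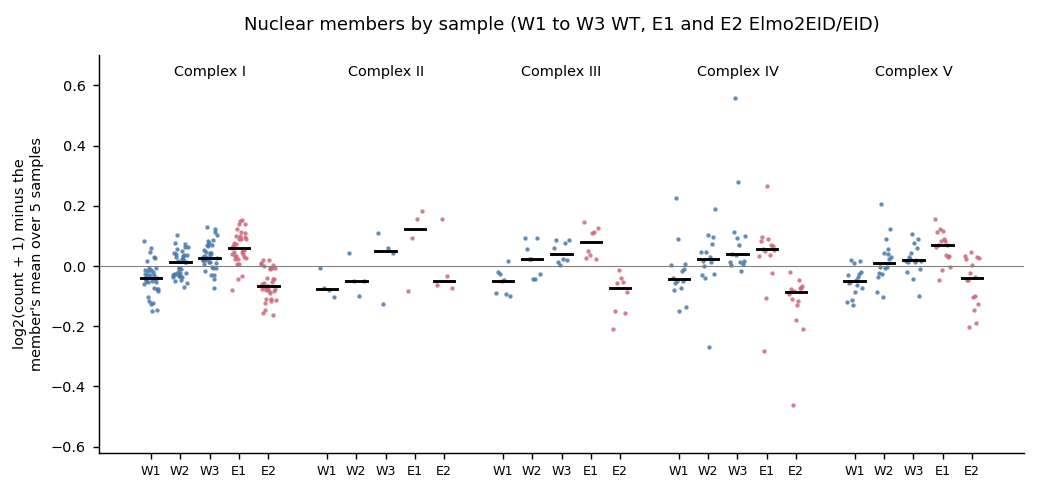
Log2(normalized count + 1) of each nuclear member minus its mean over the 5 samples, by complex, for the 78 nuclear members that averaged 100 normalized counts or more. Blue points are WT samples, red points Elmo2EID/EID samples, and black bars are medians of the members shown. In complexes I, III, IV and V the members of Elmo2EID/EID replicate 1 (E1) lie mostly above 0 and those of replicate 2 (E2) mostly below it.

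Promoters of the nuclear members were searched for the cores of a few motifs, and no expression value was compared by motif. RefSeq windows (GRCm38.p6) of 300 bases, 250 before to 50 after the start, were found for 65 of 83 nuclear symbols. The core of the NRF1 motif (GCATGCGC, either strand) occurred in 10 of the 65 (15.4%), against 3.05% of 27025 genes with a window. A YY1 core (AAGATGGC) occurred in 9 (13.8%, against 3.19%), an ETS core as bound by GABPA (CCGGAAGT) in 5 (7.69%, against 4.31%), and an ERR core (CAAGGTCA) in 3 (4.62%, against 1.76%). NRF1, GABPA, YY1 and ERR proteins are known regulators of respiratory genes. A match of letters is a description of the window and not a bound site, and the background genes were not matched to the members by promoter type. As examples, 60 bases upstream of the RefSeq start, 5′ to 3′ on the strand of the gene, are given with the NRF1 core in capitals. They are shown for the most abundant member of complexes I and IV with an upstream core, both stretches lying outside the gene in GENCODE M21. Ndufa6, an accessory subunit of complex I, is read at chr15:82354341-82354400 (minus strand) with its core 83 bases before the start, and Cox6a1 at chr5:115349085-115349144 (minus strand) with its core 160 bases before it.
Ndufa6: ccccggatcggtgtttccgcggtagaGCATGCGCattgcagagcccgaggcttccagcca
Cox6a1: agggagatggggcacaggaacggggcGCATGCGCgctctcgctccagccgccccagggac

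Ndufa6 had 4208, 4547 and 4510 normalized counts in WT, against 4594 and 4012 in Elmo2EID/EID samples. Its groups overlapped, as did those of Cox6a1 given above.

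Other genes of the pathway were read against all 18156 tested genes, of which 2.23% were called and 9458 had a log2 fold change above 0. A list of 53 tested genes held assembly factors, electron carriers and the subunits Cyc1 and Ndufab1. Of these 53, 1 passed the test, a share near that of all genes, and 37 had a log2 fold change above 0. Cox18, which inserts mt-Co2 into the inner membrane, had 335, 293 and 339 normalized counts in WT, against 521 and 693 in Elmo2EID/EID samples, a rise of 0.90 on the log2 scale (SE 0.15, adjusted p = 0.0356 from limma). Cox18 was called under 10 of the 18 alternatives run. It was not called when any 1 of the 5 samples was left out, and its log2 fold change then ran from 0.70 to 1.11. The adjusted p from limma was 0.0649 without WT replicate 3, 0.140 without limma's trend and 0.115 with no filter. Of 29 genes of mitochondrial DNA upkeep and expression, 0 were called and 22 had a log2 fold change above 0. Tfam, which packs and transcribes mitochondrial DNA, ranged from 1793 to 1900 normalized counts with overlapping groups. Of 78 mitochondrial ribosomal proteins, 0 were called, with a median log2 fold change of 0.02. Of 19 regulators, 0 were called. Ppargc1a, a coactivator of respiratory genes, had 1694, 1112 and 1791 in WT, against 2206 and 2181 in Elmo2EID/EID samples, above WT in both but not past the test (log2 fold change 0.55, SE 0.20, adjusted p = 0.255). Of 13 citrate cycle genes, 0 were called, 12 had a log2 fold change above 0 and the groups did not overlap in 6 (46.2%, against 32.6% of all tested genes).

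Markers of the cells in the cultures were read beside these values. The 10 myotube markers summed to between 1927429 and 2264983 normalized counts in WT and to 1931563 and 2129982 in Elmo2EID/EID samples, with 0 called. The 8 endothelial markers summed to between 216 and 917 in WT and to 2275 and 3503 in Elmo2EID/EID samples, with 0 called, and the groups overlapped in none of the 8, 7 being higher and 1 lower, where 32.6% of all tested genes had groups without overlap. Of 6 tested mural markers, 2 were called lower, Rgs5 and Notch3, where 1.14% of all tested genes were. Cspg4 and Myh11 had higher values in both Elmo2EID/EID samples without passing the test, Pdgfrb and Abcc9 overlapped, and the sums, to which Abcc9 gave most, were 10989 to 12819 in WT, against 9956 and 10013 in Elmo2EID/EID samples. The 8 cycling genes all had a log2 fold change below 0, with 0 called and sums of 2627 to 3759 in WT, against 2428 and 2595 in Elmo2EID/EID samples. Sums of 8 fibro-adipogenic markers were 277 to 1635 in WT and 1157 to 1214 in Elmo2EID/EID, and those of 7 macrophage markers 39.8 to 71.8 and 56.5 to 216. Sums of 7 Schwann cell markers were 16076 to 17024 in WT and 15418 to 15675 in Elmo2EID/EID. The sum went against most of them, as 6 of the 7 had a log2 fold change above 0 and 1 below. The groups did not overlap in 3 of the 7 (42.9%), 2 higher and 1 lower. Cidea, the only adipocyte marker of 5 that was tested, had 159, 129 and 213 in WT, against 225 and 300 in Elmo2EID/EID. The other 4 adipocyte markers had at most 3.73 normalized counts in each sample. No fibro-adipogenic, macrophage, Schwann cell or adipocyte marker was called, and no marker of any list was at 0 in all samples. The part of any of these cells in the values of the members was not tested.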

How the data were processed

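RNA was taken from WT (n = 3) and Elmo2EID/EID (n = 2) primary myoblasts differentiated for 72 h, enriched for poly-A RNA and sequenced as stranded 50-base read pairs. Per the labels and the study's methods, the authors aligned untrimmed reads to GRCm38 with STAR 2.5.1b, used featureCounts 1.4.6 in its reverse-stranded mode on uniquely mapped reads, and divided each count by a DESeq2 (1.34.0) size factor. The deposited signal is this normalized count. The annotation release named in the methods was not used here. GENCODE M21 matched 54165 of 54232 identifiers and gave symbols, biotypes and exon lengths. The exon length of a gene joined all its annotated exons, also those of minor transcripts.

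Reads were recovered from the step of each column, and 100% of positive values came out whole within 0.01 of a read. The main test was limma 3.58.1 (lmFit and eBayes with trend, two-sided, R 4.3.3) on log2(normalized count + 1) for genes that reached 5 normalized counts in any sample. Adjusted p (Benjamini-Hochberg) under 0.05 was called. The scale understates the change of genes with few counts. edgeR 4.0.16 and DESeq2 1.42.0 were run on the recovered reads as alternatives, beside other pseudocounts, filters, normalizations, a replicate block and leaving out each sample. The script was tested on simulated data in which 200 of 18156 genes, drawn from all genes and not from the members, were changed. At a log2 change of 0.5 limma recovered 13%, edgeR 16.5% and DESeq2 48.5% of them. Of the calls there, 10.3%, 15.4% and 24.2% were false. At a log2 change of 1 the recovered shares were 87%, 85.5% and 93%. Counting intervals and floors cover counting error only.

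Stretches shared between genes were found by comparing each 50-base window of a member's longest coding transcript with the GENCODE M21 transcripts of all other genes, on either strand. Parents of pseudogenes were found with blastn 2.17.0, over at least 50% of the pseudogene. Named members were the genes of mitochondrial DNA, the isoform families, the 4 complex II genes, and in each complex the nuclear member with the highest level per kilobase and those with the largest estimate in each direction among means of at least 100 normalized counts. All other named genes were chosen after their values were seen. The members, the lists and these rules were chosen with earlier results of these data known.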

Additional observations from a re-analysis of the deposited data

How the results depend on the processing

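The number of members called was 0 under every alternative but the DESeq2 Wald test, which called 2 lower. Leaving out 1 sample at a time moved the median log2 fold change of nuclear members between -0.070 and 0.061, the extremes being those without Elmo2EID/EID replicate 1 and replicate 2. The mitochondrial median and the share of reads in mitochondrial members moved by less than the spread between replicates. With the replicate block, in which WT replicate 3 stands alone, 0 members were called and the medians were 0.01 for nuclear and -0.06 for mitochondrial members. The block reversed mt-Nd2 (0.068) and mt-Co1 (0.017). Replicates 1 and 2 share numbers in the labels with no stated litter, batch or day, and over 15107 genes the differences between them in the 2 genotypes had a correlation of -0.201, so the numbers were not taken to pair the samples.

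Leaving out 1 sample turned the direction of some small estimates. The range was -0.44 to 0.17 for mt-Nd2, -0.11 to 0.046 for mt-Co1, -0.036 to 0.22 for Sdhd, -0.018 to 0.13 for Uqcrc2, -0.62 to 0.18 for Cox4i2 and -0.081 to 0.31 for Cox7a1. The cause was not tested. Cox6c kept its direction under every alternative run, between -0.27 and -0.20, as did Cox6a2 between -0.76 and -0.47, Cox6b2 between -1.20 and -0.90, Sdhb between 0.17 and 0.24 and Atp5e between -0.28 and -0.13. Over the 42 named members tested, 13 values reversed under other alternatives and 31 when 1 sample was left out, of 753, and 2 became calls. With 2 Elmo2EID/EID samples, leaving 1 out assumes that the lone sample varies like WT. Depth limits the members with few counts, such as Cox4i2.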
